A study of Homo sapiens with 12 samples.

Results

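This account covers 8 genes of gluconeogenesis in MDA-MB-468 and HCC1187, cell lines from triple-negative breast cancer: the enzyme genes PCK1, PCK2, PC, FBP1 and G6PC3, the transporter gene SLC37A4, and the coactivator genes PPARGC1A and PPARGC1B. They are 8 of the 60675 genes in each count table, found there by symbol. The set was chosen by a measured value, the lower PCK1 count in HCC1187 after knockdown of SOX9-AS1, so the HCC1187 knockdown values below are a description and carry no p-value for these genes. RNA was sequenced from 12 libraries in 4 groups of 3. MDA-MB-468, kept in DMEM, received an shRNA against LacZ (sh-CONTROL, libraries S1 to S3) or against the long non-coding RNA SOX9-AS1 (sh-SOX9-AS1, S4 to S6). HCC1187, kept in RPMI-1640, received the same pair of treatments (S7 to S9 and S10 to S12). Transfection lasted 48 h in all 4 groups, so the controls also carry an shRNA. Each line is a single model, and its medium goes with it. The labels do not say whether libraries of 1 group are separate cultures, so p-values measure only the spread between these libraries.

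Gluconeogenesis makes glucose from lactate, amino acids and glycerol, and runs to completion in liver and kidney. Pyruvate carboxylase (PC) makes oxaloacetate in mitochondria, and phosphoenolpyruvate carboxykinase turns it into phosphoenolpyruvate, in the cytosol as the PCK1 product or in mitochondria as the PCK2 product. Fructose-1,6-bisphosphatase (FBP1) and a glucose-6-phosphatase close the route, and cells that lack the last step can still use the first ones to supply serine, glycerol and nucleotides.

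Of the 3 sequencing lanes of each library, lane 1 was used, with 6026376 to 10160040 counts per library, and levels and absences here rest on that lane. SOX9-AS1, the target, had 6.04, 7.28 and 6.54 CPM (counts scaled to a common library size) in the MDA-MB-468 controls against 5.54, 5.03 and 5.57 CPM after knockdown, a log2 fold change of −0.30 ± 0.20 (SE, n = 3 per group, adjusted p = 0.417 by the quasi-likelihood test of edgeR). In HCC1187 it had 2.32, 1.40 and 1.74 CPM in the controls against 1.16, 0.697 and 0.796 CPM after knockdown (−1.08 ± 0.36, adjusted p = 0.0349). These HCC1187 values rest on 5 to 24 counts per library. The MDA-MB-468 library S4 is labelled as knockdown but stood apart from S5 and S6: across 15032 genes its log2 CPM had r = 0.9899, 0.9913 and 0.9949 with S1 to S3, and 0.9748 and 0.9710 with S5 and S6. At the target, S4 lay with the knockdown libraries: its SOX9-AS1 level was between those of S5 and S6. SOX9, kept as a label check, stood at 149 CPM in S4 and at 120 and 112 CPM in S5 and S6. The controls had 230, 203 and 180 CPM of SOX9. S4 is missing from the deposited list of libraries and their phenotypes. MDA-MB-468 results are therefore given with and without it. Because S4 was set apart partly by its levels in these same data, leaving it out favours larger group differences. The p-values and counts of passed genes without S4 are thus a description. Both lines are labelled basal-like. KRT5, a basal keratin gene, stood at 740 to 1599 CPM in MDA-MB-468 and did not exceed 0.194 CPM in HCC1187. KRT14 stood at 1.68 to 21.6 CPM and did not exceed 0.108 CPM, respectively. EGFR stood at 5462 to 6452 CPM in MDA-MB-468 and at 52.7 to 58.7 CPM in HCC1187. KRT17 stood at 101 to 663 against 3.93 to 11.4 CPM, and CDH3 at 91.5 to 156 against 11.7 to 20.8 CPM. Of the basal markers listed, only FOXC1, a basal transcription factor, was higher in HCC1187. It stood at 21.7 to 95.2 CPM in MDA-MB-468 and at 129 to 191 CPM in HCC1187. SOX10 was at 0 in all 12 libraries.

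PCK1 was found in HCC1187 and hardly in MDA-MB-468. The gene lies on chromosome 20 (GRCh38, 57561080 to 57568112, plus strand). The HCC1187 controls S7, S8 and S9 had 41.7, 71.0 and 104.7 CPM, from 431, 657 and 1021 counts. The knockdown libraries S10, S11 and S12 had 12.1, 28.4 and 18.8 CPM, from 83, 204 and 213 counts. All knockdown libraries lay below all controls. How many of all genes have such groups without overlap was not counted, so overlap is given in this account as a description only. The group means were 72.5 ± 31.5 and 19.8 ± 8.22 CPM (SD, n = 3), 3.68-fold lower after knockdown (log2 fold change −1.88 ± 0.24, SE). The controls themselves spread widely. Leaving out S9 gave −1.52 and leaving out S11 gave −2.21, the ends of the range over single libraries left out. In MDA-MB-468, S1 to S5 had no PCK1 count and S6 had 3. In such bulk libraries, fewer cells with PCK1 RNA and less of it per cell cannot be told apart.

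**Figure D1:**
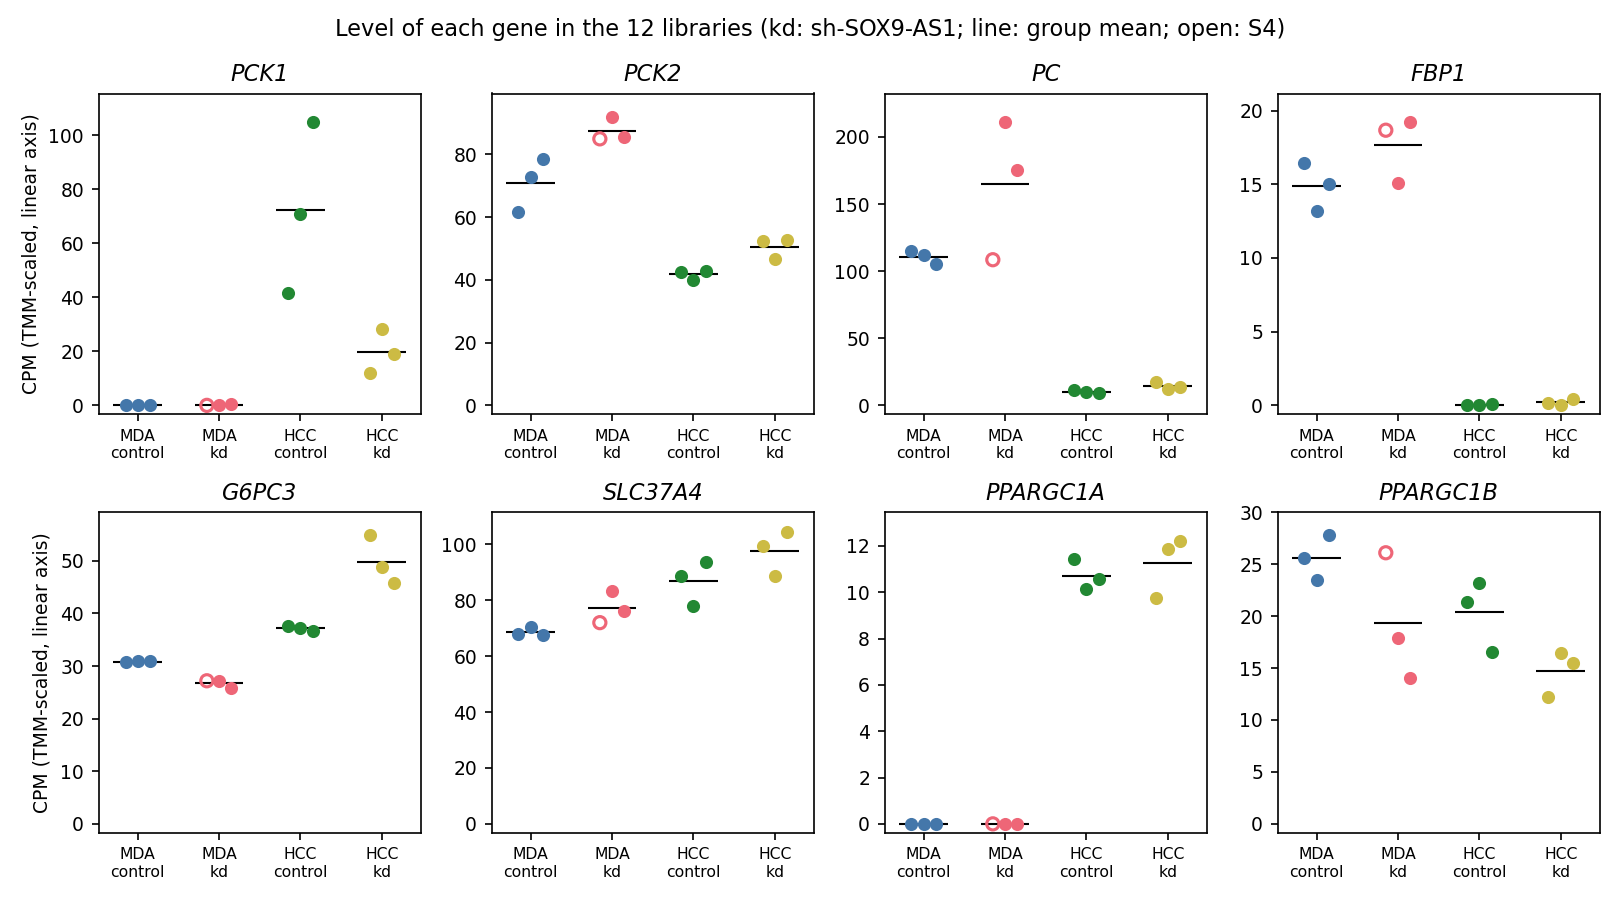
Level of each of the 8 genes in CPM (linear axes), with 1 point for each library and a line at the mean of each group of 3; kd is sh-SOX9-AS1, MDA is MDA-MB-468, HCC is HCC1187 and the open point is S4. PCK1 and PPARGC1A are near 0 in MDA-MB-468, FBP1 is near 0 in HCC1187, and the 3 HCC1187 knockdown libraries of PCK1 lie below the controls.

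The mitochondrial isozyme gene PCK2 (chromosome 14, 24094053 to 24110598) was present in every library and did not follow PCK1. In HCC1187 it stood at 42.4, 39.9 and 43.0 CPM in the controls and at 52.5, 46.7 and 52.6 CPM after knockdown. These groups did not overlap either, but knockdown was the higher one, by a log2 fold change of 0.27 ± 0.10. Per kilobase of gene length, the ratio of PCK1 to PCK2 was 0.602, 1.09 and 1.49 in S7 to S9 and 0.141, 0.373 and 0.219 in S10 to S12. The ratio was lower in each knockdown library than in each control, a comparison that the lengths do not enter. The deposited length of PCK1, 6828 bases, takes in nearly the whole gene because annotated transcripts retain introns. Its level per kilobase is set low by that length, so which isozyme gene stood higher in the HCC1187 libraries cannot be read from these ratios.

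**Figure D2:**
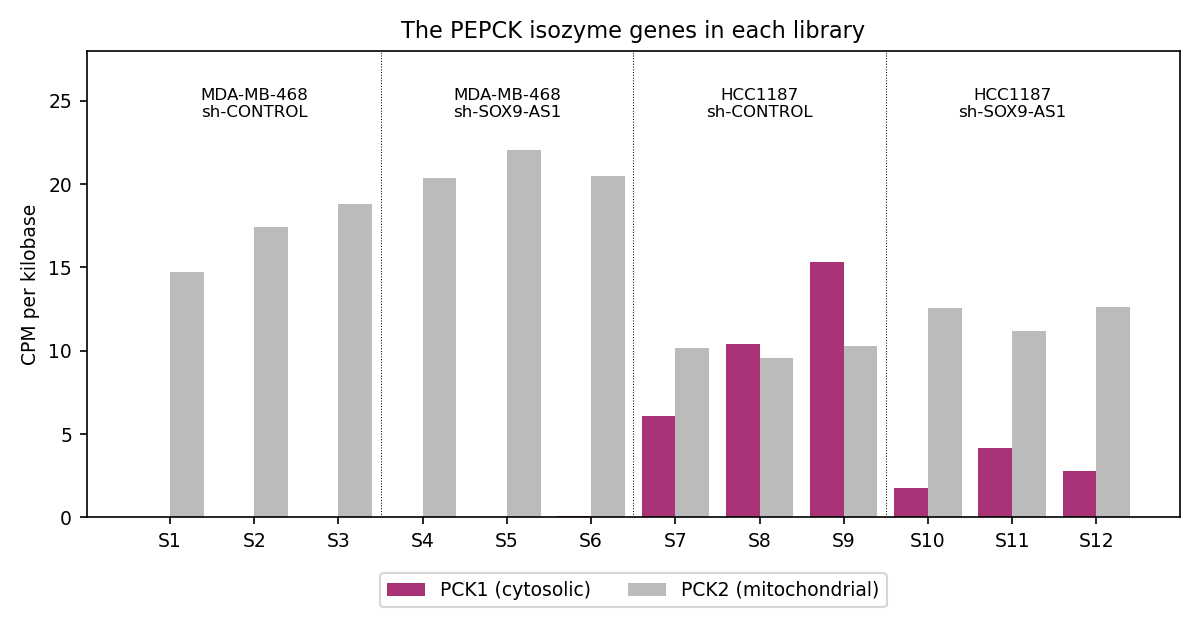
PCK1 (dark bars) and PCK2 (grey bars) in CPM per kilobase of deposited gene length, 1 pair of bars for each library S1 to S12 with the 4 groups separated by dotted lines; no error is drawn because each bar is a single library. PCK1 bars are tall in S7 to S9, shorter in S10 to S12 and absent or near 0 in S1 to S6, while PCK2 is present throughout.

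Of the other enzyme genes and the transporter gene in HCC1187, those that could be fitted differed less than PCK1. PC and G6PC3 were higher after knockdown without overlap, and the SLC37A4 groups overlapped. PC (chromosome 11, 66848233 to 66958376, minus strand) stood at 11.1, 10.2 and 9.33 CPM in the controls and at 17.8, 11.8 and 13.9 CPM after knockdown, without overlap (log2 fold change 0.49 ± 0.16). G6PC3, the widely expressed glucose-6-phosphatase gene, stood at 37.7, 37.2 and 36.6 CPM against 55.0, 48.8 and 45.8 CPM, also without overlap (0.41 ± 0.10). SLC37A4 encodes the carrier that brings glucose-6-phosphate into the endoplasmic reticulum. It stood at 88.7, 77.9 and 93.5 CPM against 99.6, 88.5 and 104.4 CPM, and the groups overlapped (0.16 ± 0.09). FBP1 had 0, 0 and 1 counts in the controls and 1, 0 and 5 counts after knockdown, too few to fit.

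The 2 coactivator genes of HCC1187 differed from each other. PPARGC1A encodes PGC-1α, which drives PCK1 in fasting liver. It stood at 11.4, 10.2 and 10.6 CPM in the controls and at 9.75, 11.8 and 12.2 CPM after knockdown, and the groups overlapped (0.07 ± 0.15). PPARGC1B, the gene of the related PGC-1β, stood at 21.4, 23.2 and 16.5 CPM against 12.2, 16.5 and 15.5 CPM, with every knockdown library below every control (−0.47 ± 0.15). Of the 7 genes with enough counts to fit, 5 passed at an adjusted p under 0.05 (3 higher, 2 lower), against 22.8% of all 14970 genes tested. This comparison chose the set, so nothing is read from that count. It was 3 without S7 or without S9 and 2 without S8 or without S10. The shares of all genes that passed were then 17.9%, 16.1%, 14.4% and 19.4%, in the same order. With no library left out, 9.78% of all genes were higher and 13.1% lower. Rises were 42.8% of the calls, and 57.7% when libraries were scaled by their totals alone.

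**Figure D3:**
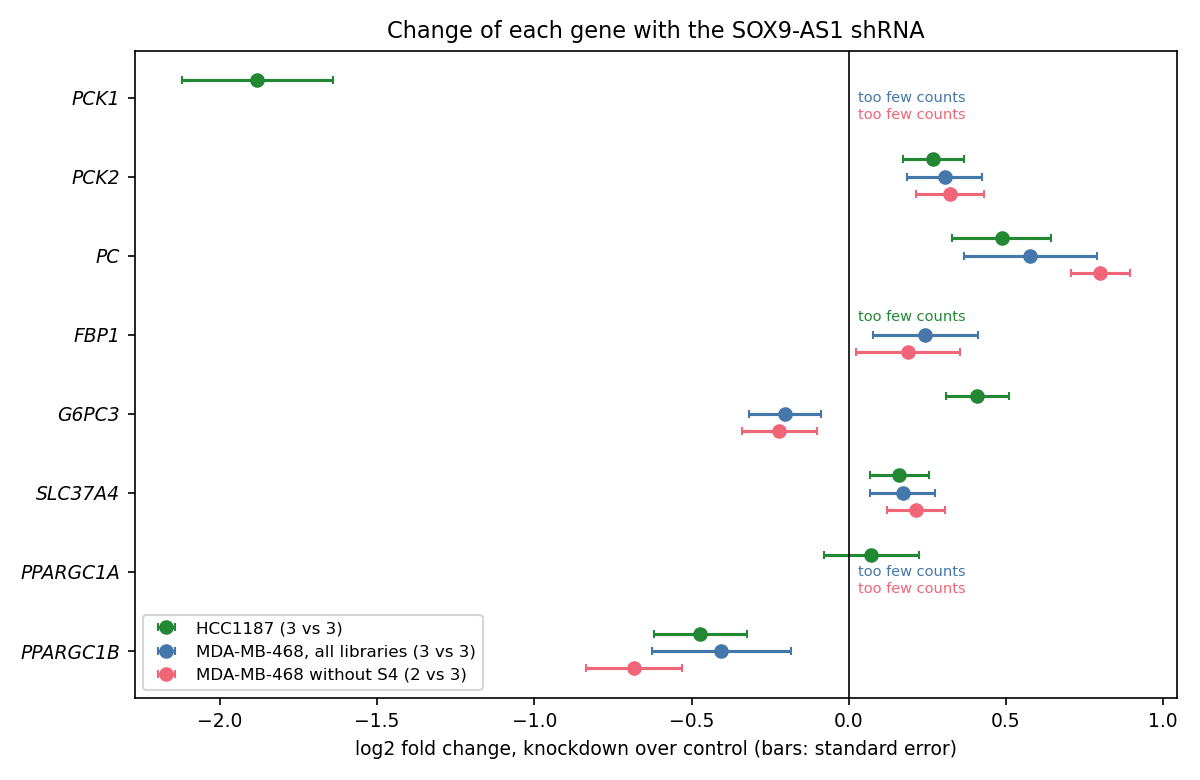
Log2 fold change of each gene, knockdown over control, with its standard error: HCC1187 (3 against 3 libraries), MDA-MB-468 with all libraries (3 against 3) and MDA-MB-468 without S4 (2 against 3). PCK1 in HCC1187 lies at −1.88, G6PC3 lies above 0 in HCC1187 and below 0 in MDA-MB-468, and leaving out S4 moves PC and PPARGC1B away from 0.

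The rule that chose the genes did not use the same contrast in MDA-MB-468, though earlier results of these data were known. With all 6 libraries, none of the 6 genes with enough counts passed, against a background of 0.00733% (1 of 13638 genes). At an unadjusted p under 0.05 stood 2 of the 6, PC and PCK2, and 2554 of all genes; DESeq2 called 304 genes and none of the 6. Without S4, 3 of the 6 passed, against 40.7% of 13947 genes (20% higher and 20.7% lower). PC and PCK2 rose and PPARGC1B fell.

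In PC, S4 parted from the rest of its group. The controls had 115, 112 and 105 CPM, S4 had 109 CPM, and S5 and S6 had 211 and 176 CPM. S4 thus lay among the controls and the other pair above them. The log2 fold change was 0.58 ± 0.21 with S4 (adjusted p = 0.219) and 0.80 ± 0.09 without it (adjusted p = 1.01e-05, n = 2 against 3). An exon of PC shares 621 bases with LRFN4 on the other strand, and no source used here says whether the counting used strand. LRFN4 itself had a log2 fold change of 0.03 ± 0.12 without S4 (adjusted p = 0.849).

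PCK2 stood at 61.5, 72.8 and 78.6 CPM in the MDA-MB-468 controls, at 84.9 CPM in S4, and at 92.1 and 85.6 CPM in S5 and S6. Here S4 lay with the knockdown libraries, above all controls. The log2 fold change was 0.30 ± 0.12 (adjusted p = 0.235) and without S4 0.32 ± 0.11 (adjusted p = 0.0272). PPARGC1B stood at 25.6, 23.5 and 27.8 CPM, at 26.1 CPM in S4, and at 17.9 and 14.1 CPM in S5 and S6. Its log2 fold change was −0.41 ± 0.22 (adjusted p = 0.333) and without S4 −0.68 ± 0.15 (adjusted p = 0.00225).

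The remaining 3 genes passed neither with nor without S4. FBP1 lay between 13.2 and 16.4 CPM in the controls and between 15.1 and 19.2 CPM after knockdown (0.24 ± 0.17, adjusted p = 0.419; 0.385 without S4). G6PC3 stood at 30.8, 30.9 and 30.9 CPM against 27.2, 27.2 and 25.8 CPM (−0.20 ± 0.12, adjusted p = 0.347; 0.154 without S4). The G6PC3 groups did not overlap, and the direction is opposite to that in HCC1187. SLC37A4 stood at 67.8, 70.4 and 67.6 CPM against 72.0, 83.3 and 76.3 CPM, also without overlap (0.17 ± 0.10, adjusted p = 0.368, or 0.0800 without S4). PPARGC1A had no count in any of the 6 libraries. The marker list of hepatocytes, the main gluconeogenic cells, summed to 9.06 to 12.7 CPM in the controls and 13.6 to 27.9 CPM after knockdown. Of its 6 genes 4 had any count, SERPINA1 the most. ALB did not exceed 0.310 CPM, and APOA2 and TTR were at 0.

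Between the control libraries of the lines, 3 of the 8 genes were on in one line and nearly off in the other. With PC they made 4 of 8 genes with an absolute log2 difference of at least 3, a limit set after the values were seen, against 19.4% of all genes. PCK1 had 2109 counts over S7 to S9 and none over S1 to S3, at least 576-fold higher in HCC1187, taking 3 counts over the group (0.125 CPM) as the limit. A gene can be lower after knockdown only where it is present, so this PCK1 difference is tied to the choice of the set and is a description. PPARGC1A had 315 counts over the HCC1187 controls and none over those of MDA-MB-468, at least 86.0-fold higher. FBP1 went the other way, with 360 counts over the MDA-MB-468 controls and 1 over those of HCC1187, a ratio of 439.5 (exact 95% interval 78.4 to 17408, counting error only). The knockdown groups showed the same arrangement: PCK1 was 131-fold higher in HCC1187 (44.6 to 638), PPARGC1A at least 76.1-fold higher, and FBP1 74.1-fold higher in MDA-MB-468 (33.7 to 203). FBP1 shares 283 exonic bases with PCAT7 on the other strand, which stood at 6.93 to 7.69 CPM in the MDA-MB-468 controls and at 0.308 to 0.484 CPM in those of HCC1187.

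The other 5 genes were present in both lines, and all 5 passed the test between the controls (n = 3 per line), against 84.1% of 15592 genes (43.6% higher and 40.4% lower in HCC1187). PC was 10.7-fold lower in HCC1187, at 10.2 ± 0.902 against 111 ± 5.19 CPM (log2 difference −3.42 ± 0.10, adjusted p = 7.45e-18). LRFN4, which overlaps PC on the other strand, was also lower there (−1.325 ± 0.11, adjusted p = 3.81e-10), and its part in the PC counts was not tested. PCK2 was 1.68-fold lower (−0.75 ± 0.10, adjusted p = 3.74e-07). SLC37A4 was higher (0.35 ± 0.09, adjusted p = 0.000767), and so was G6PC3 (0.28 ± 0.10, adjusted p = 0.0114, or 0.0507 without S2). SLC37A4 shares 544 exonic bases with TRAPPC4 on the other strand, which was lower in HCC1187 (−0.78 ± 0.09, adjusted p = 7.95e-08). PPARGC1B was lower (−0.32 ± 0.13, adjusted p = 0.0266), but its p was 0.0573 without S3, 0.170 without S9 and 0.553 with libraries scaled by their totals. That scaling moved the median difference of all genes from 0.061 to 0.294. These controls are those of the knockdown comparisons, and line and growth medium cannot be told apart.

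**Figure D4:**
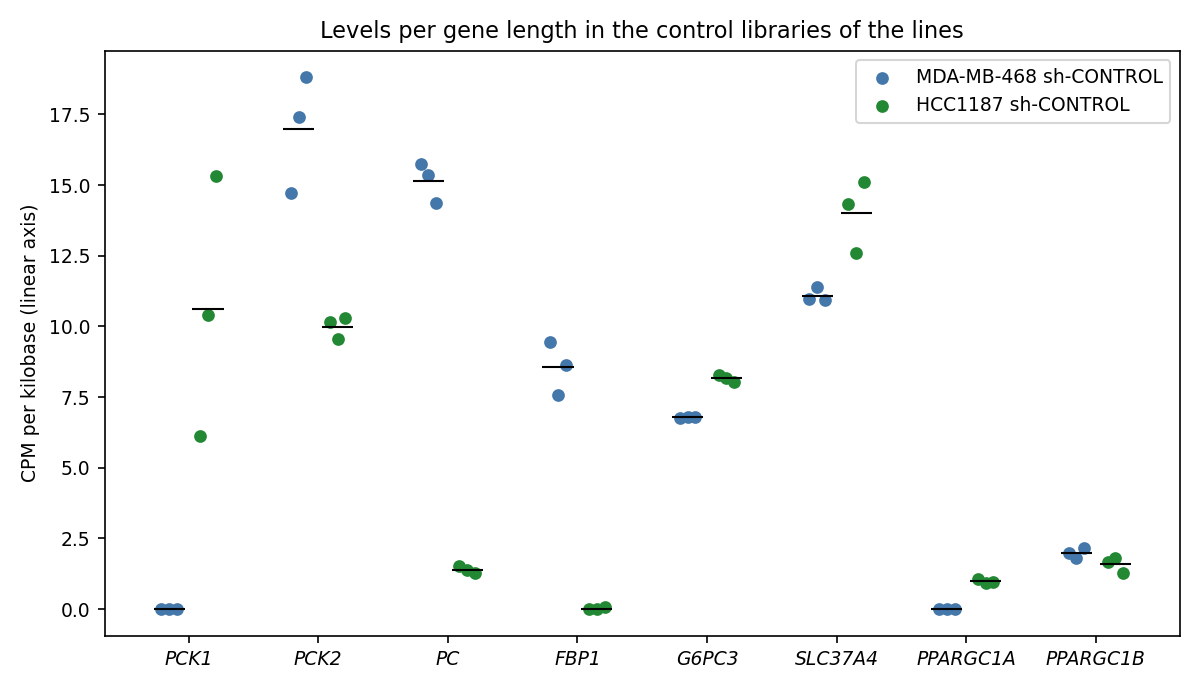
Level of each gene in CPM per kilobase in the 3 control libraries of MDA-MB-468 and the 3 of HCC1187 (linear axis; 1 point for each library, line at the mean). PC and FBP1 are far higher in MDA-MB-468 and PCK1 and PPARGC1A are found in HCC1187, while G6PC3, SLC37A4 and PPARGC1B differ little.

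Ordered by CPM per kilobase, the MDA-MB-468 controls had PCK2 first at 17.0 and PC at 15.2, whose ranges overlapped, then SLC37A4 at 11.1, FBP1 at 8.55, G6PC3 at 6.78 and PPARGC1B at 1.99, each below the one before it without overlap. In the HCC1187 controls the order was SLC37A4 at 14.0, PCK1 at 10.6 and PCK2 at 10.0, whose ranges overlapped from each to the next, then G6PC3 at 8.16. PPARGC1B at 1.58 and PC at 1.40 overlapped, and PPARGC1A at 0.986 and FBP1 at 0.0197 came last. Per kilobase, PC and PCK2 were thus near each other in MDA-MB-468, which rests on their deposited lengths of 7302 and 4177 bases. The exons of PC cover 5927 bases in GENCODE v29, so its place may be set too low. In CPM, without length, PC stood at 111 and PCK2 at 71.0 in these controls. In HCC1187, PC stood well below both carboxykinase genes. The deposited lengths of PCK1 (2 merged exons), SLC37A4 (3 merged exons, 6186 bases) and G6PC3 (5 merged exons, 4551 bases) cover most of each gene, so their places in these orders may be set too low.

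Promoters from RefSeq (GRCh38.p14, 250 bases before to 50 after a start) were in the table used here for 7 of the 8 genes, not for PCK1. Shown first are those of FBP1 and PPARGC1A, which were on in opposite lines, and then those of PC and PCK2, which both rose in MDA-MB-468 without S4. The sequences run 5′ to 3′ on the strand of the gene, and capitals mark TGACG (the short form of the cAMP response element) and CCAAT on either strand.
FBP1, chr9:94639469-94639768, minus strand: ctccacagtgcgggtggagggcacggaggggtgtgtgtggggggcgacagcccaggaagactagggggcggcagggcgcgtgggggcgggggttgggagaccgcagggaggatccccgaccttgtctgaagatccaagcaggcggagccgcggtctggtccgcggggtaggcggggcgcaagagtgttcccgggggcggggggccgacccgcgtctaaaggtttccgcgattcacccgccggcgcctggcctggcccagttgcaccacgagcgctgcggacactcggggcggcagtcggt
PPARGC1A, chr4:23881052-23881351, minus strand: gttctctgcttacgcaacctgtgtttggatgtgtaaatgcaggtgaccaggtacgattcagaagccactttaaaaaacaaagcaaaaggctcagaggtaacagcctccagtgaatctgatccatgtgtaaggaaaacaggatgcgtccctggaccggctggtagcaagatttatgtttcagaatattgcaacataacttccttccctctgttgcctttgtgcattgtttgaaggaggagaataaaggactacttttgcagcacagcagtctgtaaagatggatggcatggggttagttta
PC, chr11:66958334-66958633, minus strand: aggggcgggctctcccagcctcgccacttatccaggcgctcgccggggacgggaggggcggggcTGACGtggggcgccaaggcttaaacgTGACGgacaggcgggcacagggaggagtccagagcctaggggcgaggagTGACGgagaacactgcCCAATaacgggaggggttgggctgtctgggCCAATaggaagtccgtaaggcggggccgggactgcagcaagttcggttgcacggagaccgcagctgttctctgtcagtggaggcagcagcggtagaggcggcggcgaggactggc
PCK2, chr14:24094061-24094360, plus strand: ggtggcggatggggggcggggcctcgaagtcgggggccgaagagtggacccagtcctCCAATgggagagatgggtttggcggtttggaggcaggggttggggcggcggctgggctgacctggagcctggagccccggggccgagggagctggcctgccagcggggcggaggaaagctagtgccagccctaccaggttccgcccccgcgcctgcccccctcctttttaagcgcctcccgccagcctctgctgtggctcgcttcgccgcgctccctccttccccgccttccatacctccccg

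The FBP1 promoter was rich in CpG, with 32 of them, and this PPARGC1A promoter poor, with 4, where the median of 35116 promoters was 14. PPARGC1A has another start in the table, at chr4:24472856-24473155, with 42 CpG. Which start these cells use was not measured here. The PC promoter shown held 3 TGACG sites and 2 CCAAT boxes; the other two PC starts held no TGACG, and 1 of them a CCAAT box. PCK2 held 1 CCAAT box, and CCAAT was also found at starts of G6PC3, SLC37A4 and PPARGC1B. The CpG-rich start of PPARGC1A held 1 TGACG. Of all promoters, 24.6% held TGACG and 34.6% held CCAAT. The full response element TGACGTCA, which contains the short form and occurs in 1.85% of promoters, was in none of the promoters of the 7 genes, nor was the ATF4 composite motif TGATGNAAN (3.61%). The E-box CACGTG, in 7.26% of promoters, was found at G6PC3 and at the CpG-rich start of PPARGC1A, and TATAAA, in 11.5%, at 1 start of SLC37A4. The search covered 6 motifs on both strands, and a match or its absence describes only the letters in these windows.

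Around these genes, several further genes of the gluconeogenic route of liver were at or near 0 in both lines. G6PC2 had no count in any library. G6PC1, the liver glucose-6-phosphatase gene, had a level above 0 in S11 alone, at 0.139 CPM, and FBP2 and SLC2A2 did not exceed 0.128 and 0.108 CPM. HNF4A, a liver factor that binds the PCK1 gene, did not exceed 0.671 CPM. In HCC1187 the list of kidney proximal tubule markers summed to 76.2 to 85.7 CPM in the controls and 68.4 to 81.7 after knockdown, nearly all of it LRP2. SLC34A1 was at 0 there. The hepatocyte list did not exceed 0.708 CPM in HCC1187 and that of adipocytes 3.76 CPM, with ADIPOQ and LEP at 0. The list of markers of HEK293-type neural and oncofetal cells (LIN28B, NEFM and NEFL) was chosen, like the other lists, with earlier results of these data known. All 3 genes were counted in HCC1187, and the list summed to 450 to 492 CPM in the controls and to 235 to 290 CPM after knockdown. LIN28B stood at 131 to 151 against 52.5 to 64.4 CPM, and NEFL at 110 to 124 against 82.7 to 101 CPM. The part of this list in the result was not tested.

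**Figure D5:**
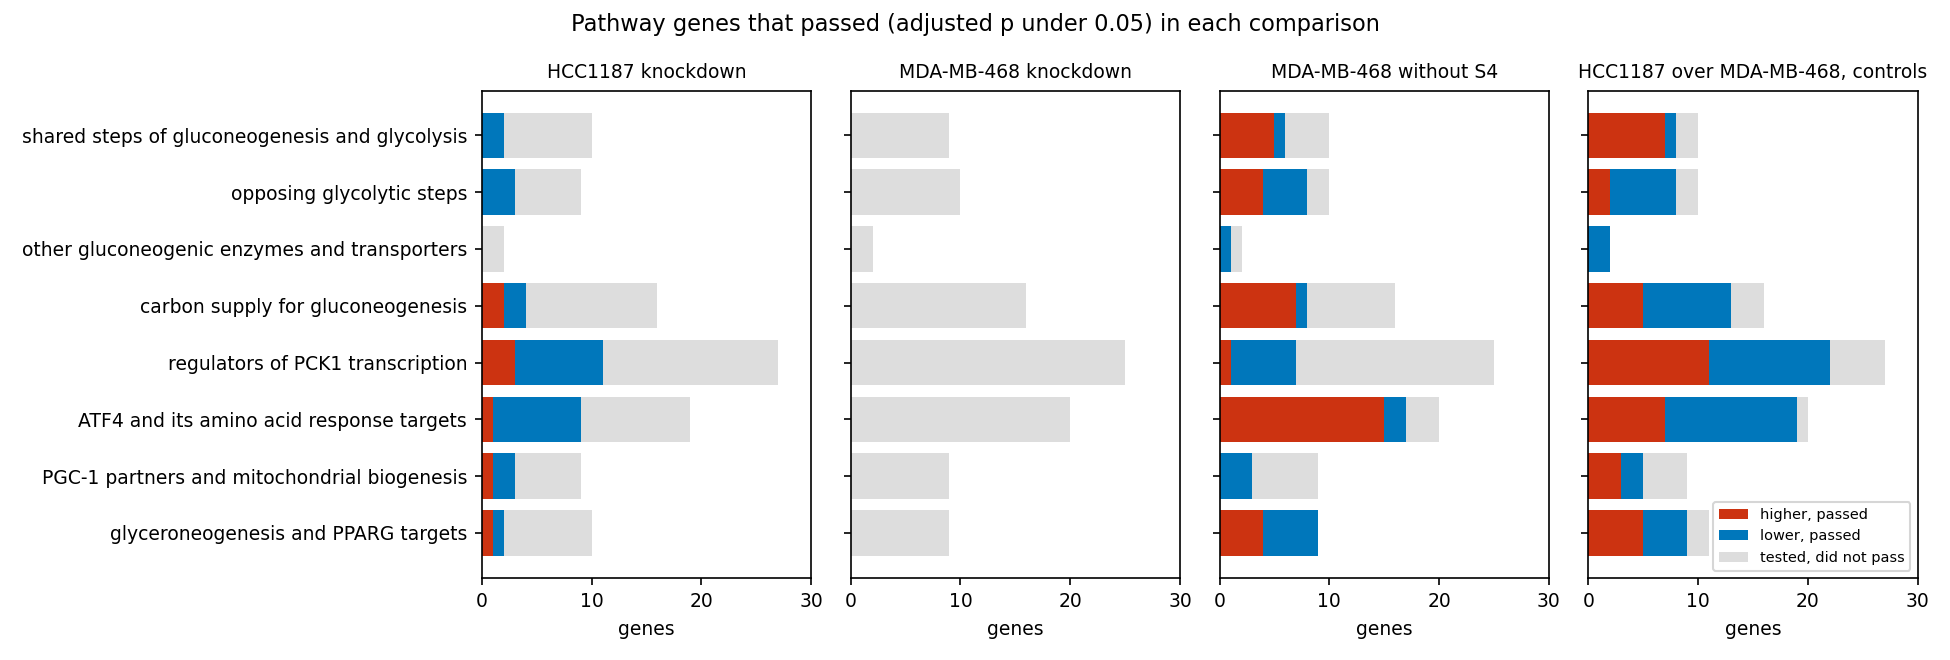
Number of genes in each of 8 pathway lists that were higher (red) or lower (blue) at an adjusted p under 0.05, or were tested and did not pass (grey), in the 4 comparisons named above the panels. No list gene passed in MDA-MB-468 with all libraries; without S4 the ATF4 list has 15 genes higher and 2 lower.

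In HCC1187 the steps that glycolysis and gluconeogenesis share had 2 of 10 tested genes lower, none higher and 8 that did not pass, where 22.8% of all genes passed (9.78% higher and 13.1% lower). This share is near the background. The list had a median log2 fold change of −0.17, against 0.01 over all genes. ALDOC, an aldolase gene, fell from 77.9 ± 14.6 to 51.0 ± 1.95 CPM (−0.62 ± 0.11, adjusted p = 0.00033), and PGK1 fell by 0.37 on the log2 scale (adjusted p = 0.0567 without S9). Of the opposing glycolytic steps, 3 of 9 were lower and 6 did not pass. All 3 encode enzymes that make or remove fructose-2,6-bisphosphate, the inhibitor of FBP1: PFKFB3 (−0.77 ± 0.10, adjusted p = 9.43e-06), PFKFB4 (−0.45 ± 0.11) and PFKFB2 (−0.44 ± 0.11, adjusted p = 0.0535 without S8). Of genes that supply carbon, 2 of 16 rose, 2 fell and 12 did not pass. LDHA, lactate dehydrogenase A, fell from 1842 ± 128 to 1096 ± 169 CPM (−0.76 ± 0.10), and SLC25A13, a mitochondrial aspartate carrier gene, rose (0.44 ± 0.10). The other rise, of SLC25A12 (adjusted p = 0.0482), was lost in 9 of 11 alternatives, among them DESeq2 (0.094). The 2 other tested members of the gluconeogenic route, SLC37A1 and SLC37A2, did not pass.

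Among regulators of PCK1 transcription in HCC1187, 3 of 27 rose, 8 fell and 16 did not pass, beside 9.78% of all genes higher and 13.1% lower. The counts of the other lists here stand beside the same shares. FOXO3, a forkhead factor restrained by insulin, fell from 114 ± 11.8 to 73.7 ± 9.02 CPM (−0.64 ± 0.10, adjusted p = 8.53e-05), and NR4A1, an orphan nuclear receptor, fell by 0.60 on the log2 scale. KLF15, an activator of hepatic gluconeogenesis, rose from 5.00 ± 0.294 to 9.19 ± 2.26 CPM (0.84 ± 0.19), and PRKACB, a catalytic subunit of protein kinase A, rose from 11.3 ± 2.76 to 19.3 ± 1.17 CPM (0.76 ± 0.16). Of ATF4 and its targets, 1 of 19 rose, 8 fell and 10 did not pass, among them SLC7A11, the cystine carrier gene, lower by a log2 fold change of −0.92 ± 0.17. Partners of the PGC-1 coactivators had 1 of 9 higher and 2 lower, with TFAM, the mitochondrial DNA packaging factor, at −0.47 ± 0.10. The rise, of TFB1M, was lost in 8 of 11 alternatives. The glyceroneogenesis list had 1 of 10 higher (LPL) and 1 lower (GPAM). Single libraries moved several of these counts of genes that passed: that of regulators to 7 without S8 or S9, that of carbon supply to 2 without S7, that of PGC-1 partners to 1 without S7, S9 or S12, that of shared steps to 1 without S9, and that of glyceroneogenesis to 1 without S7, S8 or S12. Of all genes, 14.4% to 22.3% passed with single libraries left out, and 9.18% with all 12 libraries in 1 fit. In that fit, PGK1 (adjusted p = 0.129), PFKFB4 (0.152), NR4A1 (0.0892) and GPAM (0.105) did not pass. LPL passed neither there (0.18) nor with DESeq2 (0.114).

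In MDA-MB-468 with all libraries none of the 100 tested genes of the 8 lists passed in edgeR as fitted here, 33 had an unadjusted p under 0.05, and DESeq2 called 8. Without S4, where 20% of all genes were higher and 20.7% lower, shared steps had 5 of 10 genes higher and 1 lower, with PGK1 up from 1198 ± 115 to 2046 ± 8.31 CPM (0.77 ± 0.08). Opposing steps had 4 of 10 higher and 4 lower, with PFKFB4 at 1.42 ± 0.18 and HK2, hexokinase 2, at −0.45 ± 0.09. Carbon supply had 7 of 16 higher and 1 lower, including SLC25A1, the mitochondrial citrate carrier gene (1.04 ± 0.10). PCK2 is itself known as a target of ATF4, but a link between them was not tested. In HCC1187, PCK2 was higher while 8 of 19 tested genes of the ATF4 list fell and 1 rose. Of ATF4 and its targets in MDA-MB-468 without S4, 15 of 20 rose, 2 fell and 3 did not pass. DDIT4, an inhibitor of mTORC1, rose from 76.3 ± 24.8 to 643 ± 35.5 CPM (3.07 ± 0.16) and TRIB3, a pseudokinase gene, rose by 1.04 ± 0.08. The amino acid carrier genes SLC7A5 (−0.92 ± 0.09) and SLC3A2 (−0.70 ± 0.09) were the 2 that fell. Regulators of PCK1 had 1 of 25 higher and 6 lower, including the acetyltransferase genes CREBBP (−0.75 ± 0.09) and EP300 (−0.60 ± 0.09). PGC-1 partners had 3 of 9 lower and none higher, with PPRC1, the third gene of the PGC-1 family, at −0.87 ± 0.10. In the glyceroneogenesis list all 9 tested genes passed, 4 higher and 5 lower. LPIN1, a phosphatidate phosphatase gene, rose by 1.97 ± 0.13 and AQP3, a glycerol channel gene, fell by 2.56 on the log2 scale.

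Between the controls most list genes passed, as did 84.1% of all genes. Regulators of PCK1 had 11 of 27 higher in HCC1187 and 11 lower, so the list held no common direction. CEBPB, a factor known to activate PCK1 in liver, was lower in HCC1187, at 9.71 ± 1.49 against 150.3 ± 6.59 CPM (−3.94 ± 0.11), and so was PRKACB (−2.97 ± 0.13). KLF15 stood the other way, at 5.00 ± 0.294 against 0.206 ± 0.0615 CPM, and so did NR4A1, at 28.2 ± 6.14 against 9.18 ± 1.45 CPM. Shared steps had 7 of 10 higher and 1 lower, among them ENO2, an enolase gene, at 243 ± 31.0 against 9.34 ± 2.93 CPM (4.71 ± 0.14). The lower one was GPI (−1.62 ± 0.07). Carbon supply had 5 of 16 higher and 8 lower, with LDHB at 3.70 ± 0.17 and GPT2, which makes pyruvate from alanine, at −1.67 ± 0.08. Of ATF4 and its targets 7 of 20 were higher and 12 lower, the latter including PSPH, of serine synthesis (−3.36 ± 0.10), and TRIB3 (−2.97 ± 0.10). Both tested members of the other gluconeogenic genes, SLC37A1 and SLC37A2, were lower in HCC1187.

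The 5 genes whose log2 CPM over the 6 HCC1187 libraries was most like that of PCK1, among 13910 genes, were KLHL11 (r = 0.995), KIAA1217 (0.995), UFM1 (0.994), FOSL2 (0.994) and SLC6A6 (0.994). The 6 libraries come from 2 groups that differ in PCK1, so any gene that differs the same way has a high r, and no test is attached. KLHL11 had 40.1, 45.7 and 51.3 CPM in the controls against 27.1, 33.0 and 30.4 CPM after knockdown, the same order of libraries as PCK1 within each group. Its log2 fold change of −0.61 ± 0.11 was smaller than that of PCK1. Of the 8 genes, PPARGC1B had r = 0.68 with PCK1, PPARGC1A −0.13, SLC37A4 −0.62, PCK2 −0.88, G6PC3 −0.91 and PC −0.96 over the same libraries.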

How the data were processed

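Counts are whole read counts per gene as deposited by the authors, in 1 table per line. The submitters' processing notes name Trimmomatic 0.39, HISAT2 2.1.0 and featureCounts 2.0.0, among other tools, with the genome GRCh38; annotation, parameters and strand setting of the counting: not given in the sources used here. Both tables together hold 36 count columns, one for each of 3 lanes per library. Columns carry a library number and a lane but no replicate number. Each group was limited here to as many columns as samples, so lane 1 of each library was used, and 24 columns were not used. The library numbers would allow the planned sum over lanes, which was not run. Libraries are called by the number in their column names. The word BLANCO in the names of the knockdown columns is left unexplained by the labels. No pair of libraries within a group was a copy (closest pair S1 and S2, chi-square 1.90 per degree of freedom); pairs across groups were not compared this way.

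Each comparison was fitted by itself with edgeR 4.0.16 in R 4.3.3 (filterByExpr with a minimum count of 10 and total of 15, TMM scaling, glmQLFit and glmQLFTest), and p-values were adjusted by Benjamini-Hochberg over all genes tested; a gene passed under 0.05. Scripts were tested on simulated counts. The SE of a log2 fold change comes from its size and the F statistic. CPM levels use totals scaled by TMM over the 12 libraries, and levels per kilobase use the deposited gene length. Alternatives were DESeq2 1.42.0, RLE or library-total scaling, no filter, 1 fit of all 12 libraries, and each library left out.

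The members and gene lists were chosen with earlier results of these data known. Named genes are the 8 members, SOX9-AS1 and SOX9, up to 4 genes of each list by smallest p in a comparison, and the 5 genes most correlated with PCK1 in HCC1187 (average log2 CPM of at least 1); marker and overlapping genes and those near 0 were named after their values were seen, and not all genes that meet the rule are described. Coordinates come from GENCODE v29 (GRCh38).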

Additional observations from a re-analysis of the deposited data

Results flagged for a closer look

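G6PC3 was flagged because its groups moved in opposite directions in the lines. Every MDA-MB-468 knockdown library lay below the mean of its controls and every HCC1187 knockdown library above it. With each effect taken as the mean log2 CPM of knockdown minus control libraries, the MDA-MB-468 effect minus the HCC1187 effect was −0.626. The log2 fold changes fitted by edgeR were −0.20 and 0.41, and the difference between the lines was not tested.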

How the results depend on the processing

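The number of the 8 genes that passed depended on the processing in both knockdown comparisons. In MDA-MB-468 it was 0, 1 with no low-count filter (PC, adjusted p = 0.00372 in edgeR), and 0 to 3 with single libraries left out, the 3 without S4. Of all genes, 0.00733% passed there, 5.34% with no low-count filter and 40.7% without S4. In HCC1187 the number was 5, 3 with DESeq2, 2 with all 12 libraries in 1 fit, and 2 to 5 with single libraries left out. The shares of all genes were 22.8%, 18.3%, 9.18% and 14.4% to 22.3%, in the same order. Between the controls the number was 8, and 7 or 8 under the 11 alternatives. Of all genes, 84.1% passed there, and 52.9% to 84.6% under the alternatives. The loss of PPARGC1B was seen also with all 12 libraries in 1 fit (adjusted p = 0.126). No log2 fold change of the 8 genes changed sign under any alternative run. With all 12 libraries in 1 fit, the ATF4 list had 3 genes that passed in HCC1187 in place of 9, and the regulators of PCK1 had 4 in place of 11. The share of all genes that passed was 9.18% in that fit in place of 22.8%. In MDA-MB-468 with all libraries, edgeR called 1441 of 26996 genes with no low-count filter and 887 of 16328 with all 12 libraries in 1 fit, in place of 1, and the lists moved with it: glyceroneogenesis from 0 to 6 and 3, ATF4 from 0 to 4 and 3, and shared steps from 0 to 3 and 4. No paired analysis was possible because the count columns carry no replicate number. The sum over lanes was not run. The depth of the lane used limits PCK1 and PPARGC1A in MDA-MB-468 and FBP1 in HCC1187, which were at or near 0 counts.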
